A study of Mus musculus with 9 samples.

Results

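The genes analysed here are the 10 members of the Myc, Max and Mxd network that the file lists by symbol, namely Myc, Mycn, Max, Mxd1, Mxd3, Mxd4, Mxi1, Mnt, Mlx and Mlxip. They were chosen by name out of 24060 genes. Their RNA was measured in 9 libraries of activated CD8 T cells, with 3 libraries for R7-I, 3 for R7-II and 3 for R7-III. Each clone came from a transnuclear mouse line on a Rag2-proficient BALB/c background, made from the nucleus of a single CD8 T cell specific for the ROP7 antigen of Toxoplasma gondii, so that a clone stands for 1 T cell receptor and 1 founder cell. All 9 libraries shared the same treatment, an overnight culture of spleen cells with IL-2 at 10 ng/ml and the ROP7 peptide at 10 µM, and the cells were then sorted as H-2Ld-Rop7+, CD8+ and CD3+. The labels rank the affinity for the cognate peptide as R7-I above R7-III above R7-II, and the self-reactivity as R7-III above R7-I above R7-II. The comparison of the 3 clones asks how the expression of the network differs between T cells that bind the same peptide with different strength.

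Myc is the transcription factor that drives growth and metabolism of T cells after antigen contact. It binds DNA only as a pair with Max, at the E-box sequence CACGTG and its variants. Max also pairs with the repressors Mxd1, Mxd3, Mxd4, Mxi1 and Mnt, which recruit Sin3 and histone deacetylases to the same sites, and several of these repressors are known from resting or differentiated cells. Mlx is a second pairing partner, which joins Mlxip (also called MondoA), a sensor of glucose-derived sugar phosphates that controls Txnip. The network is therefore usually described by the balance between Myc and the repressors that compete for Max.

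The values are TPM, transcript abundances corrected for length and brought to a fixed total per library, so levels of different genes can be set side by side while the read depth is not recoverable and no counting interval is given. Changes were tested with limma on log2(TPM + 1) over the 11330 genes with a maximum TPM above 1, at an adjusted p of 0.01, and all log2 fold changes below are on this scale, which understates the changes of low genes. Of the 10 members, 9 passed this filter and Mycn did not. The labels name the libraries biological replicates but do not tie them to separate mice or cultures, so p-values measure the spread between these libraries. Over all genes tested the median log2 fold change of R7-II was 0.17 relative to R7-I and 0.12 relative to R7-III, and median-of-ratios scaling of the libraries brought both close to 0 (0.0084 and 0.0042). The summed level of 21 markers (8 B cell, 5 MHC class II and 8 myeloid genes) was 158.6 to 298 TPM in R7-II, 41.7 to 64.7 TPM in R7-I and 31.3 to 35.6 TPM in R7-III. The 6 CD8 T cell genes, such as Cd3e and Cd8a, were present in every library but differed by clone. Their sums were 1499 to 1550 TPM for R7-I, 1717 to 1727 TPM for R7-III and 2236 to 2295 TPM for R7-II. All 6 passed as higher in each comparison of R7-II. Of all genes tested, 40.6% did so against R7-I and 35.6% against R7-III. The 3 NK cell genes stayed at or under 0.17 TPM in sum. In sorted bulk cells, fewer cells of a type and less RNA per cell cannot be told apart.

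The E-box is the sequence through which these proteins act, and the genes of the network can themselves carry it. Start regions of the members were therefore read from RefSeq windows on GRCm38.p6, the assembly behind mm10. Each window runs from 250 bases before to 50 bases after a start position of its own. For most members this position is not the outer end of the gene as annotated. The Mlx window, for example, was 101087040 to 101087339, inside a gene that begins at 101086707. A window was matched for 9 of the 10 members, all but Myc. The hexamer CACGTG, which reads the same on both strands, was in the windows of 4 of these 9 genes (Mxd4, Mnt, Mlx and Max) and in none of those of Mxd1, Mxd3, Mxi1, Mycn and Mlxip. Among all 32851 windows 7.15% held it, and among the 8504 genes tested that had a window 12.4% held it in at least 1. The whole windows of Mxd4 and Mxd1 are shown because these genes had the largest differences between clones, and for Mnt, Mlx and Max the 46 bases around the hexamer, all read 5′ to 3′ on the strand of the gene with the hexamer in capitals. The windows are chr5:34187661-34187960 (minus strand) for Mxd4, chr6:86669110-86669409 (minus strand) for Mxd1, chr11:74830781-74830826 (plus strand) for Mnt, chr11:101087230-101087275 (plus strand) for Mlx and chr12:76962226-76962271 (minus strand) for Max.
Mxd4: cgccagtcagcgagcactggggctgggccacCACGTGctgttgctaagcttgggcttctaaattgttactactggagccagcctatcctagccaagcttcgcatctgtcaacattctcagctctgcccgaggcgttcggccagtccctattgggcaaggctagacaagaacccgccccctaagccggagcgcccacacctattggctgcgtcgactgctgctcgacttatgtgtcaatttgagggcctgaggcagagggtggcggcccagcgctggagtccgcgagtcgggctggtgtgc
Mxd1: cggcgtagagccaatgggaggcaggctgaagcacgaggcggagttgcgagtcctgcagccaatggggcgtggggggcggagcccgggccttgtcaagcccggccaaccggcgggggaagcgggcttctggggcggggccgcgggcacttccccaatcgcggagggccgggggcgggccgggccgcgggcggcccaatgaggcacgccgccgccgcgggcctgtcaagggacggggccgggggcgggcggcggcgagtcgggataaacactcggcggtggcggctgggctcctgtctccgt
Mnt: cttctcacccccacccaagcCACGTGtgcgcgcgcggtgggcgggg
Mlx: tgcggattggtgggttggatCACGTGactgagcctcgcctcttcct
Max: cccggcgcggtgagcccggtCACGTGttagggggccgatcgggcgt
Counted from the start position of the window, the hexamer began 219 bases before it for Mxd4, 123 for Mnt, 40 for Mlx and 3 for Max. For Mlx and Max the bases shown lie inside the gene bounds given below. For Mnt they span its outer start at 74830806. A match of letters is a description of the window and no evidence of binding.

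Mxd4, Mxd1, Mxi1, Mnt and Mlxip passed as higher in R7-II in each of its comparisons, and Myc passed as lower. Max, Mlx and Mxd3 passed the test in no comparison of the values as deposited. Of the 9 members tested, 5 were called higher and 1 lower in R7-II against R7-I, beside 40.6% and 15.5% of all genes tested, and the same numbers were called against R7-III, beside 35.6% and 18.0% of all genes. Counted without direction, 56.1% and 53.6% of all genes were called in these comparisons, so the count of calls alone does not set the members apart from other genes. When R7-III was compared with R7-I, 0 of the 9 members passed with limma, where 8.41% of all genes tested were called, 6.96% as higher and 1.45% as lower. An unadjusted p under 0.05 was reached by 2 members (Myc and Max), and the share of all genes at that threshold was not counted. After median-of-ratios scaling 3 members were higher and 2 lower relative to R7-I, beside 26.0% and 28.5% of all genes (54.5% in all), and 4 were higher and 2 lower relative to R7-III, beside 25.6% and 27.8% (53.4% in all). Both comparisons of R7-II share the R7-II libraries.

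**Figure D1:**
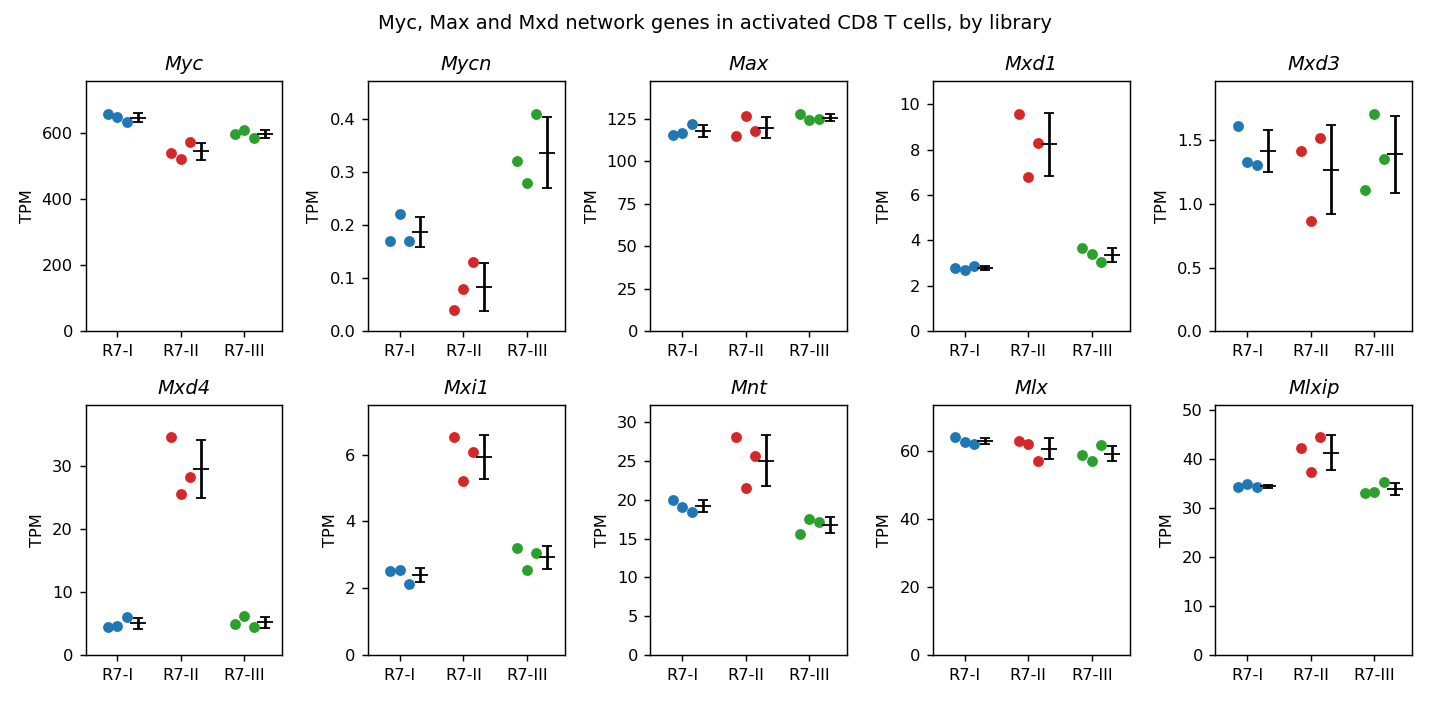
TPM (vertical axes, from 0, a scale of its own for each gene) of the 10 network genes in the 3 clones; each point is 1 library and the black bars give the mean and SD of 3 libraries. The R7-II points of Mxd4, Mxd1, Mxi1, Mnt and Mlxip lie above all 6 others, and those of Myc and Mycn below them.

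Myc lies on chromosome 15 of mm10 from 61985341 to 61990361, and was by far the most abundant member. It was at 659.9, 649.7 and 635 TPM in the R7-I libraries, at 598, 609.8 and 587 TPM in R7-III and at 541, 522 and 573 TPM in R7-II. No library of one clone overlapped those of another. The order of the clones was that in which the labels rank their affinity for the peptide. Each rank holds only 1 clone, and a link to affinity was not tested. By mean level Myc ranked 190 of all genes in R7-I, 208 in R7-III and 217 in R7-II, so it remained among the most highly expressed genes in every clone. Relative to R7-I the log2 fold change of Myc in R7-II was -0.25 (standard error 0.0343, adjusted p = 8.84e-05 from limma), and relative to R7-III it was -0.13 (adjusted p = 0.00542 from limma). After median-of-ratios scaling these changes were -0.43 and -0.26. R7-III was lower than R7-I by a log2 fold change of -0.12 that missed the threshold (adjusted p = 0.0401 from limma). The difference between R7-II and R7-I held under every alternative run. That between R7-II and R7-III did not pass after quantile normalization, with the replicate number as a block (adjusted p = 0.0129) or when 1 library was left out, namely R7-II replicate 1 (adjusted p = 0.0169), R7-II replicate 2 (0.0173), R7-III replicate 1 (0.0177) or R7-III replicate 2 (0.0251, limma), the range over the alternatives being 2.01e-04 to 0.446.

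Mycn encodes N-Myc, the paralog of Myc best known from the developing nervous system, and it was close to absent. It was listed at 0.17, 0.22 and 0.17 TPM in R7-I, at 0.04, 0.08 and 0.13 TPM in R7-II and at 0.32, 0.28 and 0.41 TPM in R7-III. The clones did not overlap, with R7-III highest and R7-II lowest, but all values were under 0.5 TPM and the gene failed the filter. When every detected gene was tested, its log2 fold change was -0.30 between R7-II and R7-III (adjusted p = 6.89e-04) and -0.13 between R7-II and R7-I (adjusted p = 0.0421), and R7-III was higher than R7-I by 0.17 (adjusted p = 0.04995 from limma). Mycl, the other Myc paralog, was at a mean of 0.01 TPM or less in every clone.

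Max, the shared partner, lies on chromosome 12 from 76937269 to 76962323 and passed in no comparison of the values as deposited. The R7-I libraries had 115, 116 and 122 TPM, those of R7-II 115, 127 and 118 TPM, and those of R7-III 128, 124 and 125 TPM. The R7-II libraries overlapped those of both other clones, while R7-III lay above R7-I throughout. Relative to R7-I the log2 fold change of Max in R7-II was 0.02 (95% confidence interval -0.068 to 0.11), relative to R7-III it was -0.07 (-0.16 to 0.019), and that of R7-III against R7-I was 0.09 (0.0029 to 0.18, adjusted p = 0.142 from limma). After median-of-ratios scaling the sign against R7-I turned to -0.15 (adjusted p = 0.0198), and Max passed as lower in R7-II than in R7-III (-0.20, adjusted p = 0.00569 from limma).

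Mxd4 showed the largest difference of the network. This repressor, on chromosome 5 from 34176580 to 34187710, stood at 34.5, 25.5 and 28.3 TPM in the R7-II libraries. It was at 4.49, 4.55 and 6.06 TPM in R7-I and at 4.87, 6.19 and 4.45 TPM in R7-III. Even the lowest R7-II library exceeded the highest of the other 6, and R7-I and R7-III overlapped. Its mean TPM in R7-II was 5.85 times that of R7-I and 5.70 times that of R7-III. With a standard error of 0.140, the log2 fold change was 2.33 relative to R7-I (adjusted p = 2.97e-07) and 2.30 relative to R7-III (adjusted p = 3.28e-07, limma), which placed Mxd4 at rank 45 and 47 of all 11330 genes when these were ordered from the highest fold change. Between R7-III and R7-I it was 0.03, with a 95% confidence interval from -0.28 to 0.34. The annotated exons of Mxd4 share 6.06% of their bases with the antisense transcript Gm42846, and in reads without strand information the contribution of each cannot be told apart.

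Mxd1, the founding member of the Mxd family (chromosome 6 from 86647044 to 86669234), was at 9.58, 6.78 and 8.31 TPM in R7-II, at 2.77, 2.70 and 2.88 TPM in R7-I and at 3.65, 3.38 and 3.06 TPM in R7-III. Its R7-II libraries stood apart from the rest, and every R7-III library was slightly above every R7-I library. With a standard error of 0.112, the log2 fold change in R7-II was 1.27 relative to R7-I (adjusted p = 3.82e-06) and 1.07 relative to R7-III (adjusted p = 1.37e-05, limma). Between R7-III and R7-I it was 0.20 and did not pass (95% confidence interval -0.044 to 0.45, adjusted p = 0.242 from limma).

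Mxi1, also called Mxd2 (chromosome 19 from 53310128 to 53373293), followed the same pattern at a lower level. The R7-II libraries had 6.52, 5.21 and 6.08 TPM, those of R7-I 2.52, 2.53 and 2.14 TPM and those of R7-III 3.21, 2.54 and 3.04 TPM. The R7-II libraries were again above the other 6, and the lowest R7-III library was just above the highest of R7-I. With a standard error of 0.107, the log2 fold change in R7-II was 1.03 relative to R7-I (adjusted p = 1.21e-05) and 0.82 relative to R7-III (adjusted p = 6.47e-05, limma). Between R7-III and R7-I it was 0.21 (adjusted p = 0.208 from limma). The values for Mxd4, Mxd1 and Mxi1 passed in both comparisons of R7-II under every alternative run.

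Mnt, a more distant repressor that is expressed in cycling as well as resting cells (chromosome 11 from 74830806 to 74845725), was the most abundant repressor of R7-I and R7-III. It was at 19.97, 19.1 and 18.5 TPM in R7-I, at 15.7, 17.6 and 17.1 TPM in R7-III and at 28.1, 21.5 and 25.7 TPM in R7-II. The clones did not overlap, with R7-II highest and R7-III lowest. Relative to R7-III the log2 fold change of Mnt in R7-II was 0.55 (standard error 0.0869, adjusted p = 2.67e-04 from limma), which held in every alternative, and relative to R7-I it was 0.36 (adjusted p = 0.00357 from limma). The difference from R7-I was smaller after median-of-ratios scaling (0.19, with an adjusted p of 0.0462). It also did not pass without R7-I replicate 2 (adjusted p = 0.0124), R7-I replicate 3 (0.0152), R7-II replicate 1 (0.0128) or R7-II replicate 3 (0.0133, limma), over a range of 1.85e-04 to 0.234. R7-III was below R7-I by a log2 fold change of -0.18 that did not pass (adjusted p = 0.176 from limma).

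Mxd3, the family member usually found in dividing cells, was the exception among the Mxd genes. It was at 1.61, 1.33 and 1.31 TPM in R7-I, at 1.42, 0.87 and 1.52 TPM in R7-II and at 1.11, 1.71 and 1.35 TPM in R7-III. Its annotated exons share 4.43% of their bases with Prelid1 on the opposite strand. Part of the Mxd3 level cannot be told apart from that gene. All 3 clones overlapped. Relative to R7-I the log2 fold change in R7-II was -0.10 (95% confidence interval -0.42 to 0.22) and relative to R7-III it was -0.08 (-0.40 to 0.25), so at this level a change the size of that of Mxd4, Mxd1 or Mxi1 lies outside both intervals.

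**Figure D2:**
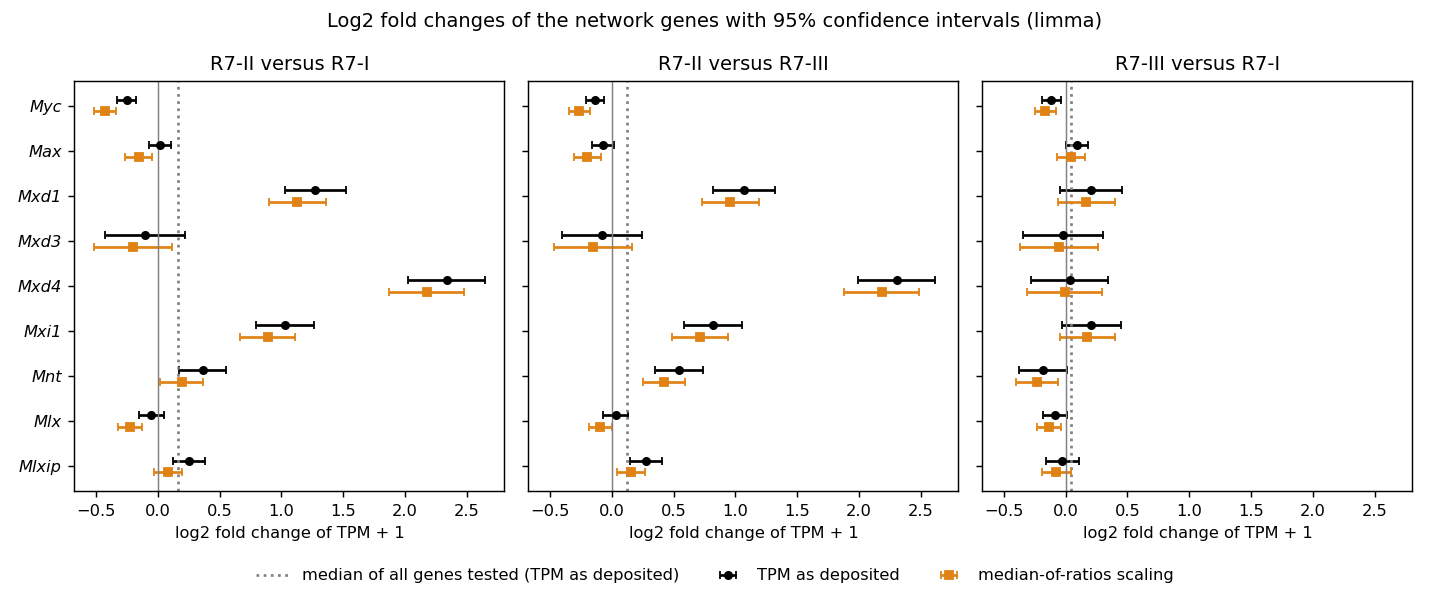
Log2 fold changes of TPM + 1 (horizontal axes) of the 9 members tested in the 3 comparisons, with 95% confidence intervals from limma, for TPM as deposited (black circles) and after median-of-ratios scaling (orange squares); the dotted line is the median of all genes tested. Mxd4, Mxd1 and Mxi1 lie far to the right in both comparisons of R7-II under either scaling, while the intervals of Mlxip and, against R7-I, of Mnt move towards 0 after scaling.

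Because TPM is per length, the levels of the repressors could be added and set against Myc, as a description with no test. The summed level of Mxd1, Mxd3, Mxd4, Mxi1 and Mnt reached 70.0 ± 10.2 TPM in R7-II (mean ± SD, n = 3 libraries here and below), compared with 30.8 ± 0.571 TPM for R7-I and 29.6 ± 1.56 TPM for R7-III. Myc RNA exceeded this sum by a ratio of 21.0 ± 0.460 in R7-I and 20.2 ± 0.790 in R7-III, with single libraries between 19.4 and 21.5. In R7-II the ratio was 7.89 ± 1.02, with libraries between 6.75 and 8.72. Most of the difference came from the repressors, since Myc over Max was 5.51 ± 0.265 in R7-I, 4.57 ± 0.399 in R7-II and 4.76 ± 0.124 in R7-III. The make-up of the repressor RNA also differed. Mnt held 62.3% ± 2.10 of the sum in R7-I and 56.7% ± 2.11 in R7-III but 35.9% ± 0.870 in R7-II, where Mxd4 took 42.1% ± 1.39, against 16.3% ± 2.88 in R7-I and 17.4% ± 2.20 in R7-III. Myc RNA thus stayed several times more abundant than the repressors together in every library.

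**Figure D3:**
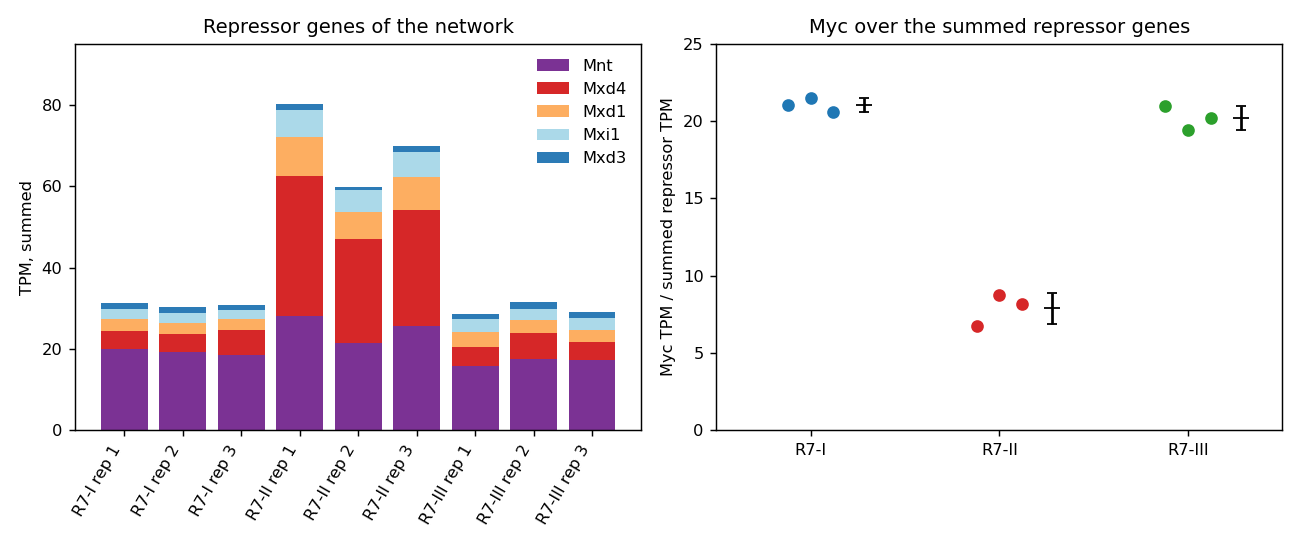
Left, stacked TPM of the 5 repressor genes in each of the 9 libraries; right, Myc TPM divided by that sum, with points for libraries and black bars for mean and SD. The R7-II columns reach 59.9 to 80.2 TPM against 28.5 to 31.4 TPM elsewhere, with most of the added height from Mxd4, and the R7-II ratios lie between 6.75 and 8.72 against 19.4 to 21.5 in the other clones.

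On the Mlx side of the network the differences were small. Mlx (chromosome 11 from 101086707 to 101092207) was at 64.1, 62.7 and 62.2 TPM in R7-I, at 63.0, 62.1 and 57.1 TPM in R7-II and at 59.0, 57.2 and 61.8 TPM in R7-III. R7-II overlapped both other clones, and its log2 fold change was -0.05 relative to R7-I (95% confidence interval -0.15 to 0.047) and 0.03 relative to R7-III (-0.066 to 0.13). After median-of-ratios scaling Mlx passed as lower in R7-II than in R7-I (-0.23, adjusted p = 0.00101 from limma), and the sign against R7-III turned (-0.09). Its annotated exons share 19.3% of their bases with Psmc3ip on the opposite strand, so part of its level cannot be told apart from that gene.

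Mlxip (chromosome 5 from 123394521 to 123457932) was at 42.2, 37.3 and 44.4 TPM in R7-II, at 34.2, 34.8 and 34.2 TPM in R7-I and at 33.0, 33.3 and 35.2 TPM in R7-III. The R7-II libraries were above all others, and R7-I and R7-III overlapped. The log2 fold change was 0.25 relative to R7-I (adjusted p = 0.00327) and 0.28 relative to R7-III (adjusted p = 0.00190, limma). Set against the median of all genes it was 0.085 and 0.16, and after median-of-ratios scaling it passed in neither comparison (0.08 and 0.15, adjusted p = 0.186 and 0.0220 from limma). Against R7-I it was also lost without R7-I replicate 1 (adjusted p = 0.0125), R7-I replicate 3 (0.0115), R7-II replicate 1 (0.0121) or R7-II replicate 3 (0.0133, limma), over a range of 1.69e-04 to 0.334.

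Both known targets of MondoA and Mlx that were listed changed in R7-II, in opposite directions. Txnip, an inhibitor of glucose uptake, was at 121 ± 15.6 TPM in R7-II, against 40.5 ± 2.95 TPM for R7-I and 42.0 ± 0.550 TPM for R7-III (n = 3 libraries each), with log2 fold changes of 1.55 and 1.49 (adjusted p = 1.39e-07 and 1.95e-07 from limma). Arrdc4, a related arrestin-domain gene, was at 1.96 ± 0.526 TPM in R7-II, against 4.55 ± 0.727 TPM for R7-I and 4.36 ± 0.453 TPM for R7-III, with log2 fold changes of -0.92 and -0.87 (adjusted p = 2.07e-04 and 3.21e-04 from limma). Of the other network genes, Mga, a large Max partner, was at 22.6 ± 0.841, 24.6 ± 1.69 and 25.7 ± 0.683 TPM in R7-I, R7-II and R7-III and passed in none of the 3 comparisons, though it was lower in R7-II than in R7-III after median-of-ratios scaling (-0.18, adjusted p = 0.00559, in a range of 9.26e-04 to 0.906 from limma). Mlxipl, the liver paralog of Mlxip, was at a mean of 0.02 TPM or less in every clone.

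The exact two-sided permutation test of the 3 R7-II libraries against the other 6 gave p = 0.0238, the smallest value its 84 splits allow, for Myc, Mycn, Mxd1, Mxd4, Mxi1, Mnt and Mlxip. The exact test gave 0.667 for Max, 0.476 for Mxd3 and 0.810 for Mlx. Among the 9 members tested, 6 did not overlap between R7-II and the other 6 libraries, beside 59.1% of all genes tested. For 5 of them R7-II was higher, beside 41.7% of all genes.

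Within R7-II, replicate 1 was highest and replicate 2 lowest for Mxd1, Mxd4, Mxi1 and Mnt, while Mlxip was highest in replicate 3 and lowest in replicate 2. The 21 markers of other cells given above summed to 282 TPM in replicate 1, 158.6 TPM in replicate 2 and 298 TPM in replicate 3, so that replicate 2 was lowest in these as well. The 8 B cell genes summed to between 33.2 and 69.9 TPM for R7-II, 8.11 and 14.98 TPM for R7-I and 5.06 and 7.27 TPM for R7-III, the 5 MHC class II genes to 101 to 168, 27.9 to 44.0 and 19.6 to 22.8 TPM, and the 8 myeloid genes to 24.4 to 79.9, 4.31 to 5.72 and 5.55 to 7.67 TPM. Cd14 was at 0 in all R7-I libraries, and the other genes of these 3 lists were detected in at least 1 library of each clone. The 3 CD4 T cell genes summed to at most 2.94 TPM, and the 4 erythroid genes to 42.4 to 127 TPM in R7-I, 1.80 to 20.2 TPM in R7-II and 11.7 to 36.4 TPM in R7-III. All 7 B cell genes tested, all 5 MHC class II genes and 6 of 7 myeloid genes passed as higher in each comparison of R7-II. Of all genes tested, 40.6% were called higher against R7-I and 35.6% against R7-III. The part of other cell types in the levels of the repressors was not tested.

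Genes that act with or on the network were read from lists chosen by name. Among 11 Myc cofactors, 5 were higher and 3 lower in R7-II against R7-I, where 40.6% and 15.5% of all genes tested were, and the median log2 fold change was 0.18, beside 0.17 over all genes. Trrap, a scaffold of histone acetyltransferase complexes, rose by 0.45 (adjusted p = 2.77e-05 from limma), or by 0.28 after median-of-ratios scaling. The helicases Ruvbl1 and Ruvbl2, at 297 and 323 TPM in R7-I, changed by -0.30 and -0.37 (adjusted p = 3.48e-06 and 1.03e-06 from limma), the former by -0.48 after scaling, and Actl6a did not pass (-0.03). Against R7-III the cofactors gave 5 higher and 2 lower, beside 35.6% and 18.0% of all genes. After median-of-ratios scaling 3 were higher and 4 lower in either comparison, Actl6a among the lower (adjusted p = 5.28e-05 against R7-I from limma). The shares of all genes after this scaling were 26.0% higher and 28.5% lower against R7-I, and 25.6% and 27.8% against R7-III.

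The 11 corepressor genes through which Mxd proteins and Mnt act gave 4 higher and 2 lower against R7-I and 3 higher and 2 lower against R7-III, with medians of 0.04 and 0.05. Over all genes tested 40.6% were higher and 15.5% lower against R7-I and 35.6% and 18.0% against R7-III, with medians of 0.17 and 0.12, and the counts of the list lay near these shares. Ncor1 was higher (0.34, adjusted p = 2.30e-05 from limma, and 0.17 after median-of-ratios scaling) and Sap30, a Sin3 complex subunit, lower (-0.35, adjusted p = 1.69e-04 from limma) than in R7-I. Relative to R7-I, Hdac1 was higher by 0.33 in R7-II (adjusted p = 4.38e-05, and 0.15 after scaling) and by 0.21 in R7-III (adjusted p = 0.00503 from limma), the latter call being lost in 9 of the alternatives, the replicate block and leaving out R7-I replicate 1 or 3 or any R7-III library among them (adjusted p from 0.00334 to 0.0215 over all alternatives). Sin3b, at 184 TPM in R7-I, did not pass as deposited (-0.04) and was lower after median-of-ratios scaling (-0.22, adjusted p = 0.00613 from limma). Rbbp7 was lower in R7-II than in R7-III (-0.13, adjusted p = 3.99e-04), though not after quantile normalization (adjusted p = 0.0170 from limma). Against R7-I it did not pass as deposited (-0.0033) and was lower after median-of-ratios scaling (-0.18, adjusted p = 1.68e-04 from limma). With median-of-ratios scaling the list had 2 higher and 5 lower against R7-I, beside 26.0% and 28.5% of all genes. It had 1 higher and 4 lower against R7-III, beside 25.6% and 27.8%.

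Of 12 genes that set the stability of the Myc protein, 5 were higher and 2 lower in R7-II against R7-I, and 4 and 2 against R7-III. These counts lay near the shares of all genes, 40.6% and 15.5% in the former comparison and 35.6% and 18.0% in the latter. Usp28, a deubiquitinase that stabilises Myc, rose from 9.82 ± 0.499 TPM in R7-I to 17.9 ± 2.06 TPM in R7-II (n = 3 libraries each), a log2 fold change of 0.80 (adjusted p = 1.08e-05 from limma). Skp2, a ubiquitin ligase subunit that acts on Myc and also belongs to the cell cycle machinery, changed by -0.52 relative to R7-I (adjusted p = 6.90e-04) and -0.75 relative to R7-III (adjusted p = 5.50e-05, limma). Huwe1 (0.25, adjusted p = 5.13e-04) and Gsk3a (0.14, adjusted p = 0.00524) passed against R7-I as deposited and not after median-of-ratios scaling (0.07 and -0.03, adjusted p = 0.0725 and 0.286 from limma), and Gsk3a was also lost without R7-I replicate 1, 2 or 3 and without R7-II replicate 1 or 3 (adjusted p at most 0.0170). Pim1, a kinase gene at 277 TPM in R7-I, did not pass as deposited (-0.14, adjusted p = 0.0343) but passed as lower with the replicate number as a block (adjusted p = 0.00986) and after median-of-ratios scaling (-0.32, adjusted p = 4.34e-04 from limma). After that scaling 2 genes of the list were higher and 5 lower against R7-I, beside 26.0% and 28.5% of all genes.

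Genes of nucleolar function, growth and metabolism that Myc is known to drive formed 2 lists, chosen with earlier results of these data known. Of 15 nucleolar genes 14 were lower and 0 higher than in R7-I, with a median of -0.18, and 10 lower and 0 higher than in R7-III, with a median of -0.14. Among all genes tested 15.5% were lower and 40.6% higher than in R7-I, with a median of 0.17, and 18.0% and 35.6% relative to R7-III, with a median of 0.12. Npm1, Ncl and Fbl, which encode abundant nucleolar proteins, changed by -0.36, -0.35 and -0.17 against R7-I (adjusted p = 2.06e-07, 1.12e-06 and 4.77e-05 from limma), and by -0.53, -0.53 and -0.35 after median-of-ratios scaling. Of 25 metabolic and growth genes 21 were lower and 0 higher than in R7-I, with a median of -0.28, and 19 lower and 0 higher than in R7-III, with a median of -0.30. Hk2, which encodes hexokinase 2, was at 39.2 ± 1.88 TPM in R7-II, against 70.9 ± 3.62 TPM for R7-I and 65.5 ± 1.69 TPM for R7-III (n = 3 libraries each) and had the largest change (-0.84 against R7-I, adjusted p = 2.25e-07 from limma). Bcat1, an enzyme of branched-chain amino acid breakdown, followed with -0.57, and Ldha, Hspd1 and Eif4a1 had -0.54, -0.44 and -0.27 (adjusted p at most 3.49e-06 from limma), the last -0.45 after scaling. Cad (-0.09), Tfrc (0.0062), Tfap4 (0.08) and Slc3a2 (0.15) did not pass against R7-I, and were named after their values were seen. Median-of-ratios scaling gave 15 of 15 and 23 of 25 lower against R7-I, beside 28.5% of all genes. Quantile normalization gave 9 and 17 lower against R7-I, with 1 of the metabolic genes higher. Under that normalization 3018 of all 11330 genes tested were lower and 2558 higher. Npm1, Ldha, Hspd1 and Eif4a1 have near-identical processed pseudogenes, so the assignment of their reads is uncertain.

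**Figure D4:**
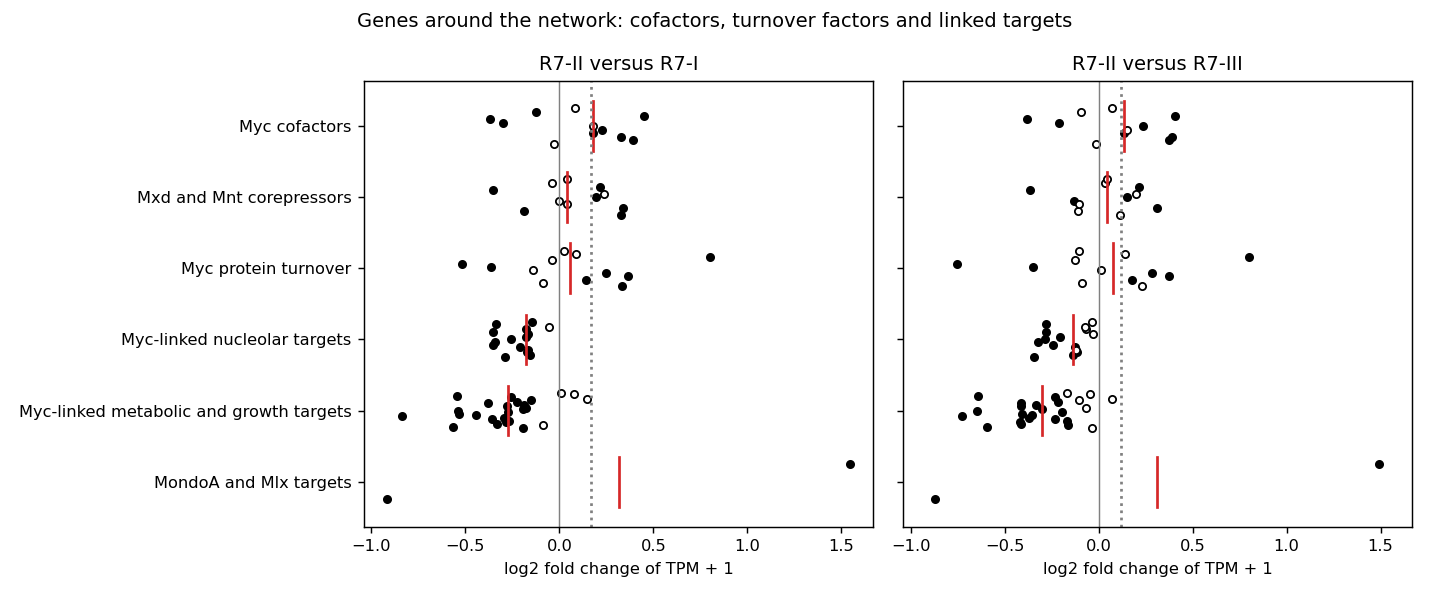
Log2 fold changes of TPM + 1 (horizontal axes) of the genes in 6 lists around the network for R7-II against R7-I and against R7-III; filled points passed the adjusted p of 0.01 and open points did not, red bars are list medians and the dotted line is the median of all genes tested. The nucleolar list sits left of 0, and the metabolic list mostly so, with its highest values at 0.15 against R7-I and 0.07 against R7-III. The other lists spread to both sides, and Txnip and Arrdc4 lie at opposite ends.

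When R7-III was set against R7-I, 7 genes over all lists passed, and 8.41% of all genes tested did (6.96% higher and 1.45% lower). In the nucleolar list 1 gene was lower (Nop58) and 0 higher, and in the metabolic list 2 were higher (Paics and Pkm) and 2 lower (Apex1 and Eif4a1). Among the cofactors and the turnover genes 0 passed with limma, with 1 of 11 and 2 of 12 genes at an unadjusted p under 0.05. In the metabolic list 18 of 25 genes and in the nucleolar list 7 of 15 had an unadjusted p under 0.05. The share of all genes at this unadjusted threshold was not counted, so these counts do not set the lists apart. The median log2 fold changes were 0.03 in the metabolic and -0.06 in the nucleolar list, beside 0.04 over all genes. Among the corepressors Hdac1, given above, and Rbbp7 (0.13, adjusted p = 0.00310 from limma) were higher in R7-III, the call for Rbbp7 being lost in 9 of the alternatives, among them the block and leaving out any R7-I or R7-III library (adjusted p from 0.00280 to 0.0545 over all alternatives). The call for Eif4a1 (-0.10, adjusted p = 0.00811 from limma) was lost in 11 of the alternatives, among them the block and leaving out any R7-I library, R7-II replicate 3 or R7-III replicate 1 or 2 (adjusted p up to 0.171). Nop58, Paics, Pkm and Apex1 were named after their values were seen.

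By the root mean square difference of log2(TPM + 1), with each gene centred on its mean over the 9 libraries, the 3 genes most alike to Myc among 8838 genes with a mean TPM of at least 5 were Nle1 (0.0225), Rpl36al (0.0230) and Psmd12 (0.0333). Nle1, which encodes a ribosome assembly factor, was at 105 ± 2.77, 87.2 ± 1.90 and 95.1 ± 2.53 TPM in R7-I, R7-II and R7-III (n = 3 libraries each). Those most alike to Mxd4 were Emp1 (0.129), Neat1 (0.151) and Sepp1 (0.166). Emp1, a membrane protein gene, was at 1.67 ± 0.218, 12.9 ± 2.47 and 1.58 ± 0.0808 TPM in those clones. It met the limit of a mean of 5 TPM only through its level in R7-II. Neat1, a long noncoding RNA, had log2 fold changes in R7-II of 2.43 and 2.20, and Sepp1, which encodes the plasma selenoprotein P, of 2.17 and 2.00. The measure takes in size as well as shape, and all points share the 3 clones.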

How the data were processed

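The data were RNA sequencing libraries (polyA-selected, single reads without strand information) from sorted CD8 T cells of 3 clones, 3 libraries each. The authors aligned and counted the reads with RSEM and deposited the levels as TPM per RefSeq gene of mm10 with 2 decimals. RSEM 1.2.11 and DESeq2 1.8.1 are named in the submitters' processing notes, and the aligner that RSEM called was not found named in the notes or the methods. TPM keeps no depth, so the depth of each library could not be read from the values and no counting interval was given. Other samples of the study, such as unstimulated cells, were not analysed here.

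Groups came from the sample labels. log2(TPM + 1) of genes with a maximum TPM above 1 was fitted with limma 3.58.1 (R 4.3.3, mean-variance trend, 1 fit of the 9 libraries). P-values were adjusted across the genes tested by the Benjamini-Hochberg method, with a threshold of 0.01. Single genes were also compared by an exact permutation test (scipy 1.17.1, python 3.11.15). The fit was also run on simulated data in which only a small part of the genes was changed. In the real data most genes were called in R7-II against R7-I, so that run does not check the effect of scaling. The alternatives were pseudocounts of 0.1 and 5, no filter or a minimum TPM of 1 throughout, median-of-ratios scaling, quantile normalization, limma without the trend or with robust moderation, fits of only the clones compared, a replicate block, leaving out each library, and a threshold of 0.05. All 10 members were named, and from each list the 3 genes of highest mean TPM and the 2 with the largest called change against R7-I (all genes in lists of up to 3). The values of 1 gene that this rule names are not reported here. Likeness used genes with a mean TPM of at least 5. Promoter windows came from RefSeq on GRCm38.p6. The members and lists were chosen with earlier results of these data known.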

Additional observations from a re-analysis of the deposited data

How the results depend on the processing

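For the members, 0 alternatives reversed a called result, while the list gene Gsk3a, called higher for R7-II against R7-I, turned to -0.03 after median-of-ratios scaling. Mxd1, Mxd4 and Mxi1 passed in both comparisons of R7-II in all of them. For R7-II against R7-I, median-of-ratios scaling gave log2 fold changes of 0.19 for Mnt and 0.081 for Mlxip and quantile normalization 0.11 and 0.058, none of which passed, while Mlx passed at -0.23 and -0.18. Leaving out 1 library gave 0.28 to 0.47 for Mnt and 0.20 to 0.32 for Mlxip. Against R7-III, Myc did not pass without the filter, without the trend or with only the clones compared (-0.13 in each) or after quantile normalization (-0.037), and ranged from -0.17 to -0.10 without 1 library. Mlxip did not pass after median-of-ratios scaling or quantile normalization (0.15 and 0.14), and Max passed after the former (-0.20). At a threshold of 0.05, Myc passed in R7-III against R7-I (-0.12), the 1 member to do so, with 2142 genes called in place of 953 and 20 list genes in place of 7. Without 1 library these counts were 436 to 1120 and 0 to 10, and the list genes numbered 4 without the filter and 0 without the trend. After quantile normalization the ratio of Myc to the summed repressors was 18.3 in R7-I and 9.18 in R7-II. The cause of these shifts was not tested.

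Same-numbered libraries of different clones did not deviate together (r from -0.0449 to 0.0888 over 9 pairs, 0 above 0.1), and 7 of 18 comparisons were best with the own number, so the numbers were taken as names only. With the replicate number as a block, 6015, 5786 and 733 genes were called in place of 6358, 6077 and 953, Myc did not pass against R7-III (-0.13), and 2 list genes passed in R7-III against R7-I. With the block the list gene Pim1 also passed as lower in R7-II than in R7-I (-0.14). TPM without depth limits what can be said of genes near 0 TPM, such as Mycn.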

Other observations

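The hexamer CACGTG was also counted in the start windows of the listed genes, as a description of letters only. It was in the windows of 9 of the 21 metabolic and growth genes that had one (42.9%) and of 2 of 11 nucleolar genes (18.2%). Among Myc cofactors 1 of 10 genes held it, among corepressors 1 of 9, and among the genes of Myc protein turnover 2 of 10. Of the MondoA and Mlx targets, Arrdc4 held it and Txnip did not within this window. Over all genes tested with a window the share was 12.4%. Variants of the hexamer were not searched.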
